A study of Mus musculus with 4 samples.

Results

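The vascular endothelial cells of the mouse cerebral cortex are described here in 4 single-cell RNA sequencing libraries, each made from the cortex of 1 animal. At P0, the day of birth (postnatal day 0), these were a Tsku knockout (TSK-KO) and a wild type (WT), and at E14.5 (embryonic day 14.5) a library that carries the TSK-KO label and a wild type. The protein made from Tsku, Tsukushi, is secreted and belongs to the small leucine-rich proteoglycans. The tissue was trypsin-dissociated whole cortex with no sort for vessels, and the labels give no strain, no sex and no litter. A cell was taken as endothelial where its counts of Cldn5, Flt1, Pecam1, Cdh5 and Kdr summed to at least 5 and its counts of C1qa, C1qb and C1qc, microglial complement genes, summed to at most 1. This rule uses measured counts, so the levels of those 5 genes describe the choice and support nothing. It found 128 endothelial cells among 7210 kept cells (1.78%), of which 24 came from P0 knockout, 23 from P0 wild type, 61 from the library labelled E14.5 knockout and 20 from E14.5 wild type.

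Brain endothelial cells line the vessels and, unlike those of most organs, form the blood-brain barrier. They are joined by tight junctions containing claudin-5, carry few transport vesicles, and supply the neural tissue through transporters for glucose, amino acids, lactate, thyroid hormone, iron and lipids. Vessels grow into the cortical wall from a plexus at its surface during mid-gestation. There, Wnt ligands from the neural tissue act on endothelial Fzd4 and its co-receptors to drive barrier genes, VEGF and Notch signals set tip, arterial and capillary states, and the early vessels still carry Plvap, a component of fenestrae and vesicle diaphragms.

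Tsku, the targeted gene, had 0 counts in 1436 kept cells of P0 knockout, against 42 counts (6.95 CPM) in P0 wild type, where CPM are counts scaled to a common total per sum. It had 74 counts (5.14 CPM, exact 95% interval 4.03 to 6.45) in the library labelled E14.5 knockout, against 54 counts (9.63 CPM, 7.24 to 12.6) in E14.5 wild type, so the Tsku counts go against that label and the library is named by its label throughout. The 128 chosen cells held few Tsku counts, 0 in P0 knockout, 1 in P0 wild type, 0 in the library labelled E14.5 knockout and 3 in E14.5 wild type. Xist, expressed from the inactive X chromosome of female cells, had 6707 counts in the library labelled E14.5 knockout and at most 3 in each other library, so sex and label cannot be told apart at E14.5. Nor can age, sex and Tsku be told apart between the 2 libraries labelled knockout. Deposited libraries held between 5607941 and 14423600 counts. Median counts per cell outside the endothelium were 5059 in P0 knockout, 4797 in P0 wild type, 2807.5 in the library labelled E14.5 knockout and 7245 in E14.5 wild type. Between any 2 libraries, 6 cell barcodes were shared in all, none of them an endothelial cell. Each group is 1 animal, so groups were not tested against each other, and the libraries of an age, which differ in label, were not pooled for a test. No p-value is given, and every interval covers counting error only.

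The 128 cells were set against the 29 other endothelial genes of a fixed list (such as Tie1, Tek, Erg, Esam and Egfl7), with no cutoff on that list. They were parted by Cldn5 and Flt1, both genes of the rule. The 113 cells with at least 1 count of Cldn5 or Flt1 carried a median of 21 of the 29 genes (range 6 to 28). The other 15 cells carried between 0 and 6 of them, so the 2 ranges met at 6. These 15 were admitted on Kdr (11 cells) or Cdh5 (4 cells) with no count of Cldn5 or Flt1. Of these 15, 6 cells held at least 100 counts of choroid plexus genes and 4 at least 100 counts of fibroblast genes. They numbered 3 in P0 knockout, 0 in P0 wild type, 3 in the library labelled E14.5 knockout and 9 in E14.5 wild type, where they held 43.0% of the counts of the chosen cells. In the marker sum, 9 cells stood at 5, just inside the rule, as 1 cell of P0 knockout, 0 of P0 wild type, 3 of the one labelled E14.5 knockout and 5 of E14.5 wild type. Just outside it, 11 cells stood at 4, as 0, 1, 6 and 4 in the same libraries. Expression values below are those of the 113 cells with Cldn5 or Flt1 (21, 23, 58 and 11 in that order of libraries), a set trimmed after the values had been seen, and the value over all 128 is given where it differs in direction or call. Their counts summed to 179667 in P0 knockout, 209108 in P0 wild type, 466195 in the library labelled E14.5 knockout and 173669 in E14.5 wild type. In E14.5 wild type, 2 cells gave 47.2% of that sum.

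**Figure D1:**
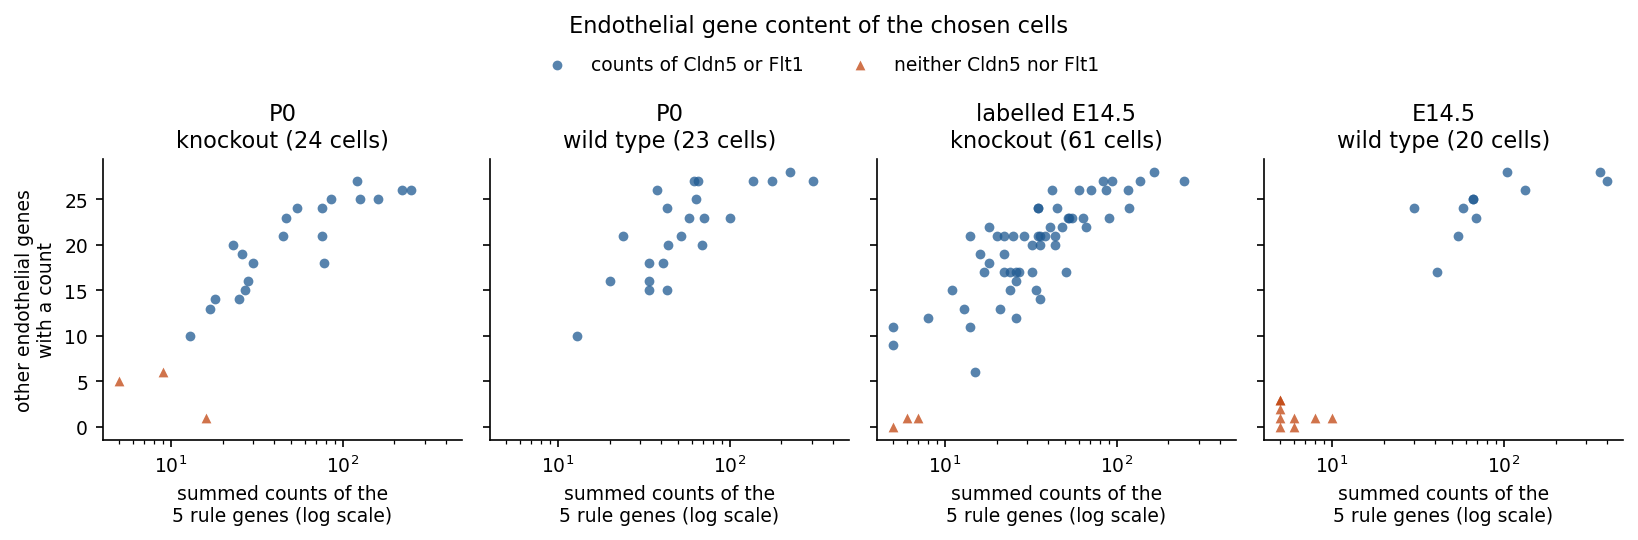
Each point is 1 cell chosen by the rule, in 4 panels for P0 knockout, P0 wild type, the library labelled E14.5 knockout and E14.5 wild type; the x axis is the summed count of the 5 rule genes on a log scale and the y axis the number of other endothelial genes with a count, out of 29. The 113 cells with Cldn5 or Flt1 (circles) carry 6 to 28 of these genes and the 15 cells with neither (triangles) carry 0 to 6, 9 of them in E14.5 wild type.

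Against all other cells of the same library, the endothelial cells carried an endothelial program far beyond the 5 genes of the rule. The summed level of the 29 endothelial genes was 13219 CPM in P0 knockout, 12988 CPM in P0 wild type, 10927 CPM in the library labelled E14.5 knockout and 11844 CPM in E14.5 wild type. In the other cells of those libraries it was 193, 101, 80.7 and 99.6 CPM in the same order. Of the 29 genes, 26 were at least 4-fold higher in endothelial cells in every library. Among all genes with at least 30 endothelial counts, 550 of 6100 met that condition. Tek, the receptor for angiopoietins, was 656-fold higher than in the other cells, as the median of the 4 libraries with any 0 set to a floor of 3 counts. Ptprb, the vascular phosphatase that opposes Tek, was 863-fold higher by this measure. The drug efflux pump Abcb1a (P-glycoprotein) was 1955-fold higher, and the glutamine transporter Slc38a5 was 681-fold higher. Robo4 (429-fold), Tie1 (791-fold), Adgrf5 (491-fold) and Erg, an ETS factor of endothelial identity (410-fold), followed. Every one of these genes stood under 3 CPM in the other cells of all 4 libraries.

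Transcripts of microglia and neurons were lower in the endothelial cells than in the other cells. C1qa, C1qb and C1qc, which the rule limits, were at 0, and Cx3cr1, P2ry12, Aif1 and Trem2, which the rule did not use, were at 0 in all 4 libraries. The 16 microglia and macrophage genes summed to 66.8 CPM in P0 knockout and 71.7 CPM in P0 wild type. Their sum was 92.2 CPM in the library labelled E14.5 knockout and 161 CPM in E14.5 wild type. In the other cells it was 1123, 736, 296 and 564 CPM in the same order. The 15 neuronal genes summed to 145 CPM in P0 knockout, 172 CPM in P0 wild type, 457 CPM in the library labelled E14.5 knockout and 461 CPM in E14.5 wild type, against 5437, 6421, 9056 and 9212 CPM in the other cells. Fibroblast genes summed to 401 CPM in P0 knockout, 354 CPM in P0 wild type, 365 CPM in the library labelled E14.5 knockout and 357 CPM in E14.5 wild type, against 552, 285, 686 and 309.7 CPM in the other cells, with Dcn and Lum at 0 in every library. Choroid plexus genes were at 0 in both P0 libraries, and stood at 508 CPM in the library labelled E14.5 knockout and 236 CPM in E14.5 wild type, against 9479 and 7870 CPM in the other cells. The 6 lymphatic genes summed to 145 CPM in P0 knockout, 105 CPM in P0 wild type, 187 CPM in the library labelled E14.5 knockout and 74.9 CPM in E14.5 wild type, against 218, 114, 108 and 157 CPM in the other cells, with Prox1, the lymphatic master regulator, at 0 in every library. The 7 genes of blood-forming endothelium summed to 111 CPM in P0 knockout, 71.7 CPM in P0 wild type, 70.8 CPM in the library labelled E14.5 knockout and 46.1 CPM in E14.5 wild type, against 45.1, 29.8, 71.6 and 57.9 CPM in the other cells, with Runx1, Gfi1 and Spi1 at 0 in every library. Pericyte and smooth muscle transcripts were not low. Their list of 16 genes (Pdgfrb, Rgs5, Kcnj8, Vtn and others) summed to 4770 CPM in P0 knockout, 3945 CPM in P0 wild type, 3477 CPM in the library labelled E14.5 knockout and 6438 CPM in E14.5 wild type, against 219, 108, 102 and 112 CPM in the other cells. At least 5 mural counts were present in 6 of 21, 10 of 23, 31 of 58 and 8 of 11 cells in that order. The cells with mural counts were deeper, with a median of 9039 counts against 5207.5 in the rest, and the part of attached or co-captured pericytes in any result was not tested.

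The share of endothelial cells lay near 1% to 3% in every library. By the rule it was 1.67% of kept cells in P0 knockout (exact 95% interval 1.07 to 2.48) and 2.20% in P0 wild type (1.40 to 3.28). It was 1.49% in the library labelled E14.5 knockout (1.14 to 1.90) and 3.23% in E14.5 wild type (1.98 to 4.94). Counting only cells with Cldn5 or Flt1, the shares were 1.46% in P0 knockout, 2.20% in P0 wild type, 1.41% in the library labelled E14.5 knockout and 1.77% in E14.5 wild type, and all 4 intervals overlapped. The 9 cells with neither gene made up the difference between the 2 values of E14.5 wild type.

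Endothelial cells rich in cell-cycle transcripts made up a lower share at birth in the libraries labelled knockout, within overlapping intervals, and the wild-type pair rests on too few cells to say. With every cell thinned to 1500 counts, at least 15 counts of S-phase and G2/M genes were found in 1 of 21 cells of P0 knockout (4.76%, exact 95% interval 0.12 to 23.8). The same was true of 1 of 23 cells of P0 wild type (4.35%, 0.11 to 21.9). At E14.5 the numbers were 19 of 57 cells of the library labelled knockout (33.3%, 21.4 to 47.1; 1 shallower cell left out) and 3 of 11 cells of wild type (27.3%, 6.02 to 61.0). The intervals of P0 and E14.5 overlapped in both pairs. Cells of highest doublet score were the top 5% of each library with all ties at the cut. In E14.5 wild type this left 566 of 620 kept cells. All 3 cycle-rich cells of E14.5 wild type were among those of highest doublet score. Without such cells, a choice made after seeing the data, 1 of 19 cells remained in P0 knockout (5.26%), 1 of 20 in P0 wild type, 17 of 53 in the one labelled E14.5 knockout (32.1%) and 0 of 3 in E14.5 wild type (exact 95% interval 0 to 70.8). In the other cells the shares were 17.2% in P0 knockout, 15.2% in P0 wild type, 24.3% in the library labelled E14.5 knockout and 16.5% in E14.5 wild type. Without thinning, the endothelial shares were 52.4%, 52.2%, 86.2% and 90.9% in the same order of libraries.

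**Figure D2:**
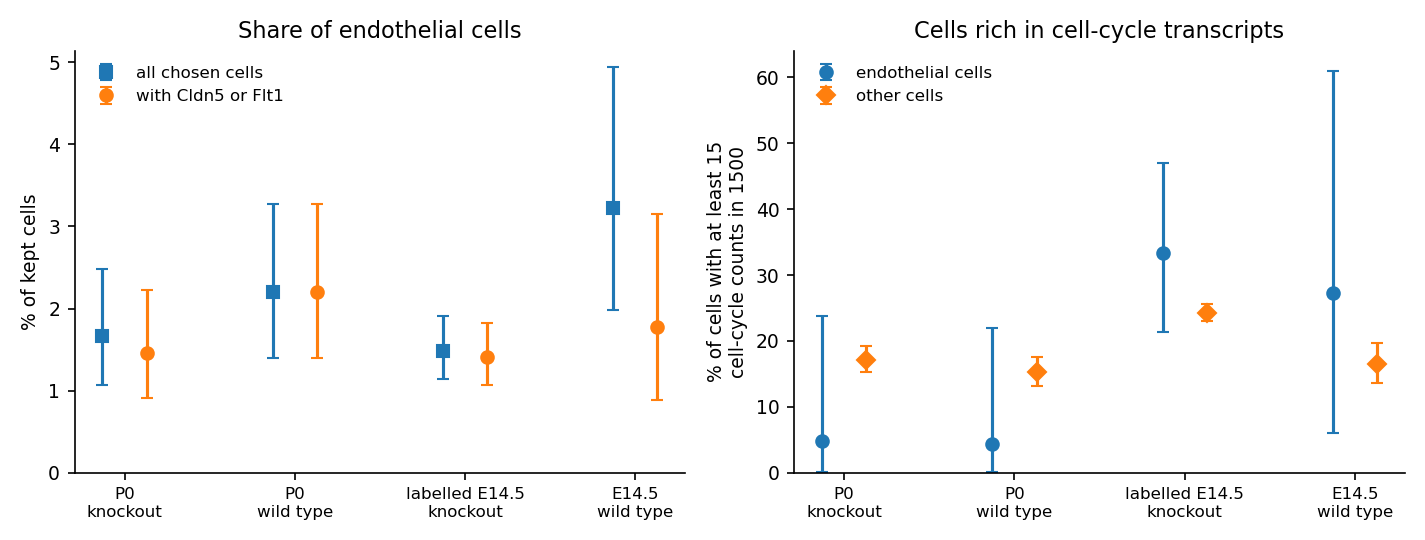
Left, endothelial cells as a percentage of kept cells by library, for all chosen cells (squares) and for those with Cldn5 or Flt1 (circles); right, percentage of cells with at least 15 cell-cycle counts among 1500, for endothelial cells (circles) and all other cells (diamonds). Bars are exact binomial 95% intervals; the endothelial cell-cycle share is 4.76% and 4.35% at P0, and 33.3% and 27.3% at E14.5.

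The comparison of P0 with E14.5 asks which transcripts separate newborn from embryonic cortical endothelium. It was made once between the 2 wild-type libraries and once between the 2 libraries labelled knockout, which share no library, on genes whose 2 sums together held 30 counts or more. The 2 libraries labelled knockout also differ in Xist (1 count in P0 knockout, 6707 in the library labelled E14.5 knockout) and in Tsku (0 and 74). Age cannot be told apart from sex and Tsku in that pair. A gene is called higher or lower where the ratio of its CPM is at least 2-fold and the 95% counting interval leaves out equality. In wild type 464 of 2763 genes were called (16.8%), of which 273 were higher at P0 (9.88% of genes tested) and 191 lower (6.91%). The E14.5 wild-type side rests on 11 cells. Only 3 of them lay outside the cells of highest doublet score, and 8 held at least 5 mural counts. Without the highest doublet scores 383 genes were called in wild type, and without the cells with mural counts 147. In the libraries labelled knockout 637 of 4609 were called (13.8%), of which 256 were higher (5.55%) and 381 lower (8.27%). Of 2722 genes measured in both pairs, 71 were higher in both (2.61%), 45 were lower in both (1.65%) and 4 were called in opposite directions. The median gene stood at 0.04 in wild type and -0.06 in the libraries labelled knockout on the log2 scale. Among those 2722 genes, the 116 shared calls made up 26.4% of the 439 wild-type calls and 34.9% of the 332 calls in the libraries labelled knockout. Over all 128 chosen cells the calls were 772 of 3666 genes (21.1%) in wild type and 763 of 5145 (14.8%) in the libraries labelled knockout.

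**Figure D3:**
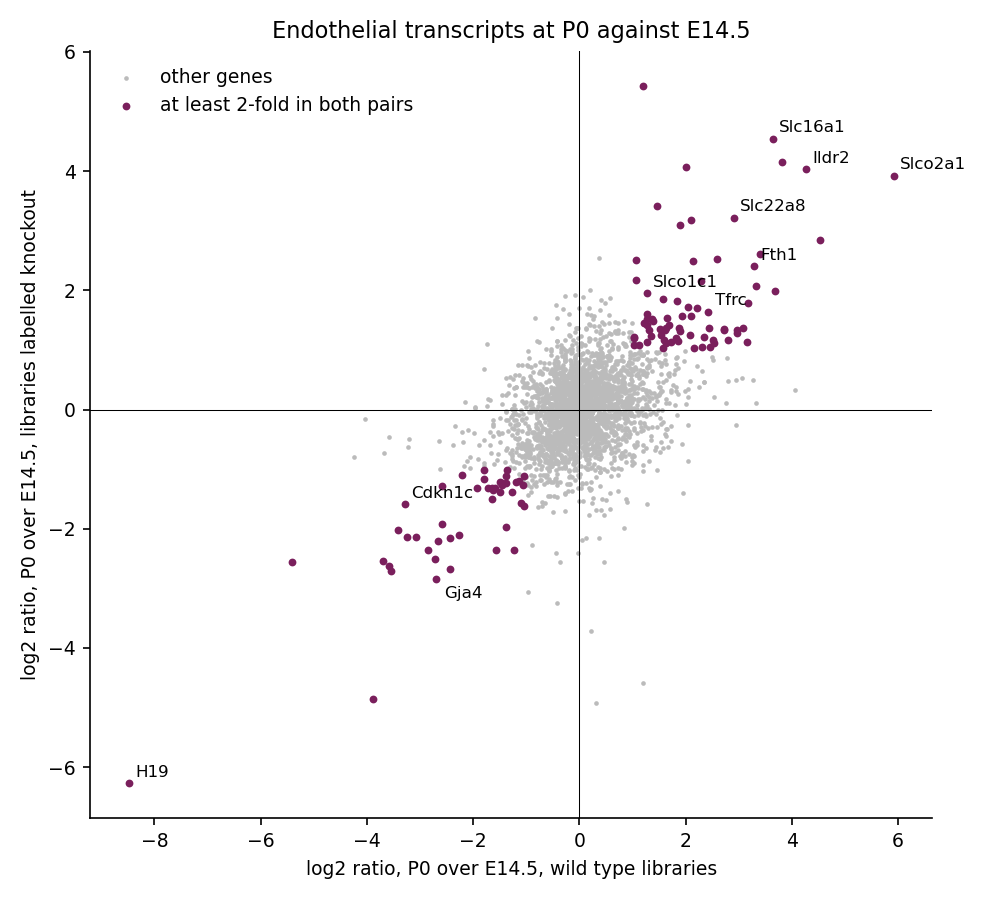
Each point is 1 of 2722 genes; the x axis is the log2 ratio of P0 over E14.5 in the wild-type libraries and the y axis the same ratio in the libraries labelled knockout, both over endothelial cells. Purple points are the 71 genes at least 2-fold higher and the 45 at least 2-fold lower at P0 in both pairs; Slc16a1, Slco2a1 and Ildr2 lie at upper right and H19 at lower left.

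Transporters of the blood-brain barrier were higher at birth in both pairs. Of 26 listed transporter genes, 19 were measured in wild type, where 8 were higher at P0 and 0 lower, with a median log2 ratio of 0.73. In the libraries labelled knockout 9 of 19 were higher and 0 lower, with a median of 0.87. Over all genes tested in these cells, 9.88% were higher and 6.91% lower in wild type, and 5.55% and 8.27% in the libraries labelled knockout. Summed over the list, the level was 17154 CPM in P0 wild type against 10457 CPM in E14.5 wild type. It was 16976 CPM in P0 knockout against 9513 CPM in the library labelled E14.5 knockout. Slco1c1, Slco2b1, Slc16a1, Slc22a8 and Tfrc were called in both.

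Slc22a8 (organic anion transporter 3, which clears organic anions from the brain) stood at 539.9 CPM in P0 knockout and 344 CPM in P0 wild type, against 57.9 CPM in the library labelled E14.5 knockout and 46.1 CPM in E14.5 wild type. Both P0 libraries were thus far above both E14.5 libraries, with log2 ratios of 2.90 (1.85 to 4.17) in wild type and 3.22 (2.59 to 3.89) in the libraries labelled knockout. Slc16a1 (the monocarboxylate transporter MCT1, which carries lactate and ketone bodies) had 401 CPM in P0 knockout and 215 CPM in P0 wild type, against 17.2 CPM in the library labelled E14.5 knockout and 0 counts in E14.5 wild type. The log2 ratio was 4.55 (3.49 to 5.81) in the libraries labelled knockout. In wild type Slc16a1 was 12.5-fold higher with the 0 set to a floor of 3 counts, and the lower log2 bound was 3.28. In all other cells Slc16a1 did not follow, with log2 ratios of -0.77 in wild type and -0.87 in the libraries labelled knockout.

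The promoter windows of these 2 genes are shown because both were called in both pairs with the greatest log2 ratios of the 5; each runs from 250 bases before to 50 after the annotated start and comes from RefSeq on GRCm38.p6, not the build of the counts. Capitals mark ACGTG (the core of the hypoxia response element) or its complement CACGT, and TATAAA or its complement TTTATA.
Slc16a1, chr3:104638414-104638713, plus strand: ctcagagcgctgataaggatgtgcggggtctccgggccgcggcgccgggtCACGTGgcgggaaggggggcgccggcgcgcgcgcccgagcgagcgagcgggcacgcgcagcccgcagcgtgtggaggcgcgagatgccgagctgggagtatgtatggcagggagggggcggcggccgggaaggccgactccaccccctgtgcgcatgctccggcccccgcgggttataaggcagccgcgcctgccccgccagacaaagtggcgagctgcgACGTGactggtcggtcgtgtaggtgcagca
Slc22a8, chr19:8592932-8593231, plus strand: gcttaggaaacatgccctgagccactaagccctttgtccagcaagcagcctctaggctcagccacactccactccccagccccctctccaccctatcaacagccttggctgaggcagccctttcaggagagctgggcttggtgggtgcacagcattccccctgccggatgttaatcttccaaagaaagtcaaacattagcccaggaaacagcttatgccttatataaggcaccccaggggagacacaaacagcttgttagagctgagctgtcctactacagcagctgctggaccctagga
ACGTG was found on either strand in 19.6% of 32851 promoter windows and TATAAA in 13.6%. Slc16a1 held 3 matches to ACGTG, of which 2 are the overlapping matches of 1 palindrome, and none to TATAAA. Slc22a8 held neither. The TCF/LEF core ATCAAAG (3.73% of windows) and the ETS core ACCGGAAG (2.30%) were in neither window.

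Slco1c1, the thyroxine transporter, stood at 1425 CPM in P0 knockout and 1812 CPM in P0 wild type, against 367 CPM in the library labelled E14.5 knockout and 754 CPM in E14.5 wild type. Tfrc, the transferrin receptor that takes up iron, stood at 1987 CPM in P0 knockout and 2047 CPM in P0 wild type, against 637 CPM in the library labelled E14.5 knockout and 380.0 CPM in E14.5 wild type. Every P0 value of Slco1c1 and Tfrc lay above every E14.5 value. Slco1c1 had a log2 ratio of 1.26 in wild type and 1.96 in the libraries labelled knockout, against 2.53 and 1.80 in all other cells. Tfrc had a log2 ratio of 2.43 (2.05 to 2.83) in wild type and 1.64 (1.41 to 1.87) in the libraries labelled knockout, against 0.55 and 0.28 in all other cells. Fth1, the ferritin heavy chain that stores iron, was 7909 CPM in P0 knockout and 9588 CPM in P0 wild type, against 1497 CPM in the library labelled E14.5 knockout and 979 CPM in E14.5 wild type. Its log2 ratio was 3.29 (3.07 to 3.53) in wild type and 2.40 (2.27 to 2.53) in the libraries labelled knockout, while in the other cells it was 0.02 and 0.22.

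Other transporters were not called in both pairs. Mfsd2a, the lysophospholipid transporter that restrains vesicle transport in the barrier, had 829 CPM in P0 knockout and 526 CPM in P0 wild type, against 319.6 CPM in the library labelled E14.5 knockout and 547 CPM in E14.5 wild type. It was called higher in the libraries labelled knockout, with a log2 ratio of 1.38 (1.04 to 1.71), but stood at -0.06 (-0.47 to 0.36) in wild type. For Abcb1a the ratios were 1.29 (0.88 to 1.70) in the libraries labelled knockout and 0.73 (0.30 to 1.18) in wild type, the second short of the 2-fold call. Slc2a1, the glucose transporter GLUT1, was not called in either pair, at -0.35 in the libraries labelled knockout and -0.04 in wild type. Over all 128 cells the wild-type median of the list was 1.46, and its level in E14.5 wild type was 6633 CPM.

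Slco2a1 and Ildr2, outside the transporter list, were among the genes called higher at P0 in both pairs. Slco2a1, the prostaglandin transporter, had 423 CPM in P0 knockout and 698 CPM in P0 wild type, against 27.9 CPM in the library labelled E14.5 knockout and 11.5 CPM in E14.5 wild type. Ildr2, a member of the angulin family of tricellular junction proteins, had 807 CPM in P0 knockout and 665 CPM in P0 wild type, against 49.3 CPM in the library labelled E14.5 knockout and 34.5 CPM in E14.5 wild type. The groups were widely apart for both, with log2 ratios in wild type of 5.92 (4.04 to 8.98) for Slco2a1 and 4.27 (3.11 to 5.74) for Ildr2. In the libraries labelled knockout Slco2a1 stood at 3.92 (3.06 to 4.90) and Ildr2 at 4.03 (3.39 to 4.73). Selenop, the plasma selenium carrier, was 1609 CPM in P0 knockout and 4108 CPM in P0 wild type, against 661 CPM in the library labelled E14.5 knockout and 524 CPM in E14.5 wild type. Its 3′ end overlaps that of Ccdc152 on the opposite strand in the GENCODE annotation, and with the counting strand not given their reads cannot be told apart.

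Among 20 further barrier genes, 4 of 14 measured were higher and 0 lower at P0 in wild type, and 7 of 15 were higher and 0 lower in the libraries labelled knockout. Over all genes tested, 9.88% were higher in wild type and 5.55% in the libraries labelled knockout. Ly6c1, Ly6e, Car4 and Pglyrp1 were called in both. Ly6c1, a surface antigen of capillary endothelium, had 195 CPM in P0 knockout and 172 CPM in P0 wild type, against 21.5 CPM in the library labelled E14.5 knockout and 40.3 CPM in E14.5 wild type. Car4, a capillary carbonic anhydrase, had 345 CPM in P0 knockout and 158 CPM in P0 wild type, against 32.2 CPM in the library labelled E14.5 knockout and 57.6 CPM in E14.5 wild type. The P0 values of both genes lay above the E14.5 values in each pair. Apcdd1, a Wnt target and inhibitor, had 2983 CPM in P0 knockout and 3324 CPM in P0 wild type, against 1345 CPM in the library labelled E14.5 knockout and 1687 CPM in E14.5 wild type. Its log2 ratio was 1.15 (0.98 to 1.32) in the libraries labelled knockout and 0.98 (0.78 to 1.18) in wild type, the second just short of the call.

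Of the 22 genes of the Wnt/beta-catenin list, 11 were measured in wild type, with 2 higher at P0 and 2 lower, and 14 in the libraries labelled knockout, with 3 higher and 1 lower. Over all genes tested, 9.88% were higher and 6.91% lower in wild type, and 5.55% and 8.27% in the libraries labelled knockout. Numbers of Wnt genes this small cannot be set apart from those shares. Notum, a Wnt-inactivating esterase and Wnt target, had 30 counts (167 CPM) in P0 knockout and 14 counts (67.0 CPM) in P0 wild type, against 4 counts (8.58 CPM) in the library labelled E14.5 knockout and 0 counts in E14.5 wild type. It was called in the libraries labelled knockout, at a log2 ratio of 4.28 (2.78 to 6.25), and had too few counts in wild type to be measured. Dkk2, a secreted Wnt modulator, was the 1 gene of the list lower in both pairs.

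**Figure D4:**
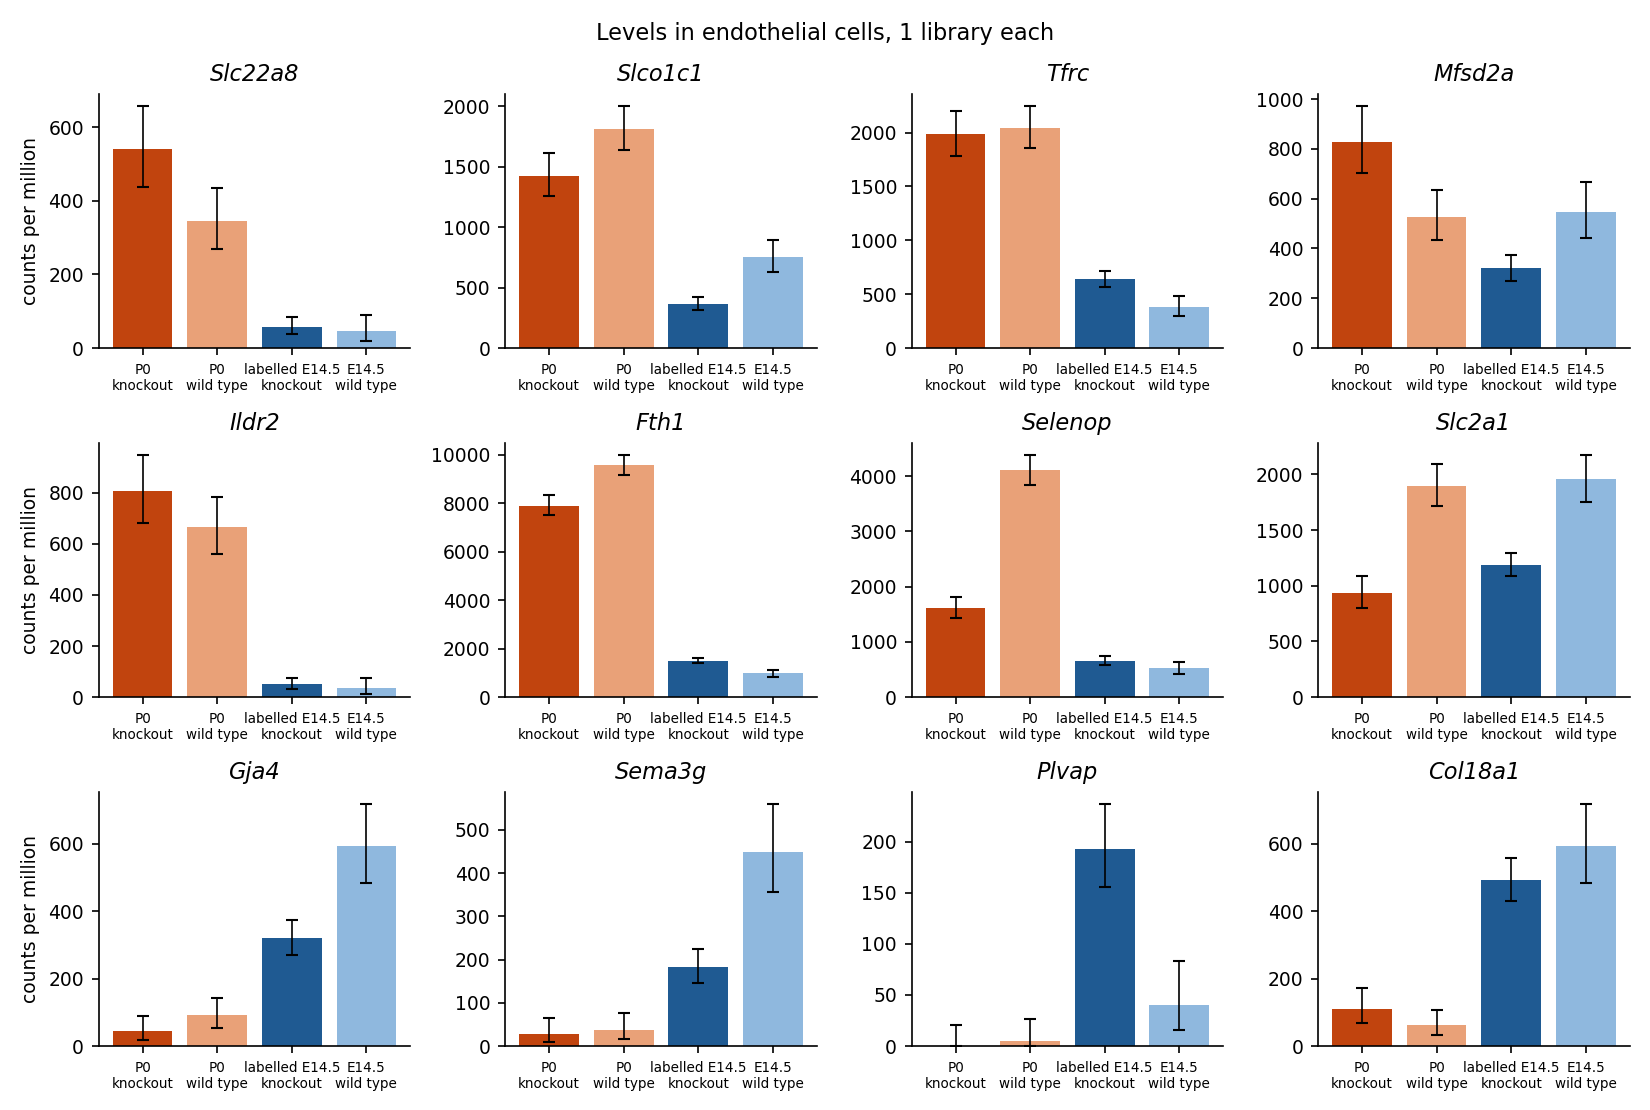
Bars give CPM of 12 genes in endothelial cells, each panel with P0 knockout, P0 wild type, the library labelled E14.5 knockout and E14.5 wild type from left to right; error bars are exact 95% counting intervals and each bar is 1 library. Slc22a8, Slco1c1, Tfrc, Ildr2 and Fth1 stand higher in both P0 libraries than in both E14.5 libraries, Gja4, Sema3g and Col18a1 stand lower, and Selenop is highest in P0 wild type at 4108 CPM.

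Arterial and Notch genes were lower at birth. Of 25 listed, 10 of 17 measured were lower and 0 higher in P0 wild type (median log2 ratio -1.49). In the libraries labelled knockout 9 of 19 were lower and 0 higher (median -0.76). Over all genes tested in endothelial cells, 6.91% were lower in wild type and 8.27% in the libraries labelled knockout. Gja4, Efnb2, Hey1, Sema3g, Cxcl12, Fbln2 and Tm4sf1 were called in both. Over all 128 cells the ratio of Cxcl12 in the libraries labelled knockout was 0.85, in the opposite direction. In all other cells 6 of 18 genes of the list were higher and 0 lower at P0 in wild type, and 5 of 19 were higher and 1 lower in the libraries labelled knockout. Over all genes tested in those other cells, 6.24% were higher and 4.63% lower at P0 in wild type, and 13.6% were higher and 6.13% lower in the libraries labelled knockout.

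Gja4, the arterial gap junction protein connexin 37, had 44.5 CPM in P0 knockout and 90.9 CPM in P0 wild type, against 319.6 CPM in the library labelled E14.5 knockout and 593 CPM in E14.5 wild type. Sema3g, an arterial semaphorin, had 27.8 CPM in P0 knockout and 38.3 CPM in P0 wild type, against 182 CPM in the library labelled E14.5 knockout and 449 CPM in E14.5 wild type. Efnb2, the arterial ephrin, had 50.1 CPM in P0 knockout and 33.5 CPM in P0 wild type, against 221 CPM in the library labelled E14.5 knockout and 282 CPM in E14.5 wild type. Both E14.5 libraries were higher for all 3 genes. The log2 ratio of Gja4 was -2.71 (-3.50 to -1.99) in wild type and -2.84 (-4.08 to -1.83) in the libraries labelled knockout. For Efnb2 it was -3.08 (-4.46 to -1.93) in wild type and -2.14 (-3.31 to -1.16) in the libraries labelled knockout. A few cells carried much of these sums in E14.5 wild type, where 1 of 11 cells held 43.7% of the Gja4 counts, 56.4% of the Sema3g counts and 71.4% of the Efnb2 counts. In the library labelled E14.5 knockout the largest share of 1 cell was 26.8% for Gja4, 20.0% for Sema3g and 17.5% for Efnb2. Among the other genes called in both pairs, this share was 23.9% for Hey1 and lower for Tm4sf1. It was 61.1% for Fbln2 and 56.5% for Cxcl12, so these sums rested mostly on 1 cell each. In E14.5 wild type the share was 62.2% for Fbln2, 44.9% for Cxcl12, 44% for Hey1 and 37.7% for Tm4sf1. Since fewer arterial cells and lower levels per cell would give the same sums, they cannot be told apart at these cell numbers.

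Col18a1 was lower at P0 in both pairs, and Plvap in the libraries labelled knockout, having too few counts in wild type to be measured. Plvap had 0 counts in P0 knockout and 1 count (4.78 CPM) in P0 wild type, against 90 counts (193 CPM) in the library labelled E14.5 knockout and 7 counts (40.3 CPM) in E14.5 wild type. With the 0 set to a floor of 3 counts, Plvap was 11.6-fold lower in P0 knockout than in the library labelled E14.5 knockout. Esm1, a tip-cell proteoglycan, had 1 count in P0 knockout and 0 in P0 wild type, against 32 counts (68.6 CPM) in the library labelled E14.5 knockout and 17 counts (97.9 CPM) in E14.5 wild type, of which 1 cell held 68.8% and 70.6%. Col18a1, the basement membrane collagen that yields endostatin, had 111 CPM in P0 knockout and 62.2 CPM in P0 wild type, against 491 CPM in the library labelled E14.5 knockout and 593 CPM in E14.5 wild type. Its log2 ratios were -3.25 (-4.21 to -2.42) in wild type and -2.14 (-2.88 to -1.48) in the libraries labelled knockout. In all other cells Col18a1 was lower too, at -1.54 and -1.75. The tip-cell list had 5 of 15 measured genes lower and 1 higher in wild type, and 3 of 18 lower and 0 higher in the libraries labelled knockout. The shares lower over all genes tested were 6.91% in wild type and 8.27% in the libraries labelled knockout.

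The G2/M list was lower at birth in the libraries labelled knockout, where 27 of 36 measured genes were lower at P0 and 1 higher (median log2 ratio -1.99). Only 13 of its 52 genes were measured in wild type, of which 1, Top2a, was lower. The summed list was not lower at birth in wild type, at 3295 CPM in P0 against 3167 CPM in E14.5. In the libraries labelled knockout it was 2377 CPM in P0 against 6731 CPM in E14.5. The shares lower over all genes tested were 8.27% in the libraries labelled knockout and 6.91% in wild type. Top2a, the DNA topoisomerase of dividing cells, had 72.4 CPM in P0 knockout and 28.7 CPM in P0 wild type, against 414 CPM in the library labelled E14.5 knockout and 190.0 CPM in E14.5 wild type. Its ratio was -2.52 (-3.45 to -1.71) in the libraries labelled knockout and -2.73 (-4.27 to -1.45) in wild type. Mki67, the Ki-67 proliferation antigen, had 13 counts in P0 knockout and 31 in P0 wild type, against 154 in the library labelled E14.5 knockout and 25 in E14.5 wild type. All 31 Mki67 counts of P0 wild type lay in 1 cell.

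Imprinted genes of fetal growth were lower at birth, with 5 of 8 measured lower and 0 higher in wild type, and 7 of 14 lower and 1 higher in the libraries labelled knockout. Over all genes tested, 6.91% were lower in wild type and 8.27% in the libraries labelled knockout. H19, the imprinted noncoding RNA next to Igf2, had 27.8 CPM in P0 knockout and 9.56 CPM in P0 wild type, against 2143 CPM in the library labelled E14.5 knockout and 3426 CPM in E14.5 wild type. The log2 ratio of H19 was -8.48 (-11.53 to -6.63) in wild type, where 1 cell held 75.8% of the E14.5 counts, and -6.27 (-7.89 to -5.04) in the libraries labelled knockout. In all other cells H19 had log2 ratios of -0.69 and -0.67. Mest stood at 373 CPM in P0 knockout and 244 CPM in P0 wild type, against 1467 CPM in the library labelled E14.5 knockout and 633 CPM in E14.5 wild type. Cdkn1c, a cyclin-dependent kinase inhibitor, followed the same direction with -3.28 (-3.85 to -2.76) in wild type and -1.58 (-2.29 to -0.94) in the libraries labelled knockout, against -1.58 and -2.11 in all other cells. The imprinted list summed in those other cells to 2356 CPM in P0 wild type against 4018 CPM in E14.5 wild type, and to 2161 CPM in P0 knockout against 4952 CPM in the library labelled E14.5 knockout.

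Immediate early genes were higher at P0, 8 of 10 measured in wild type and 10 of 13 in the libraries labelled knockout, with 0 lower in either. Over all genes tested, 9.88% were higher in wild type and 5.55% in the libraries labelled knockout. Egr1 had 646 CPM in P0 knockout and 813 CPM in P0 wild type, against 255 CPM in the library labelled E14.5 knockout and 104 CPM in E14.5 wild type. Junb had 623 CPM in P0 knockout and 488 CPM in P0 wild type, against 262 CPM in the library labelled E14.5 knockout and 115 CPM in E14.5 wild type. These genes respond to stimuli that include dissociation, and the same list was higher at P0 in all other cells, by 9 of 16 genes in wild type and 13 of 16 in the libraries labelled knockout. Over all genes tested in those other cells, 6.24% were higher in wild type and 13.6% in the libraries labelled knockout. Over all 128 cells the wild-type ratio of Egr1 was 0.31, no longer a call, and that of Fos was -0.18. The part of the dissociation was not tested.

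The comparison of P0 knockout with P0 wild type asks how endothelial transcripts differ in the animal without Tsku, and rests on 21 and 23 cells. Fewer genes were called than between the ages, 192 of 2920 (6.58%), with 86 higher (2.95%) and 106 lower (3.63%). Over all chosen cells, 289 of 3219 genes were called (8.98%), in a P0 knockout sum that then included 2 fibroblast-rich cells. The median gene stood at 0.04 on the log2 scale.

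Igfbp3, which binds insulin-like growth factors, had 34 counts (189 CPM) in P0 knockout, against 228 counts (1090.3 CPM) in P0 wild type. The counts were spread, with the largest cell holding 29.4% in P0 knockout and 14.5% in P0 wild type, and the log2 ratio was -2.53 (-3.09 to -2.002). In all other cells of these libraries the ratio of Igfbp3 was -0.71. Selenop was 1609 CPM in P0 knockout against 4108 CPM in P0 wild type, a log2 ratio of -1.35 (-1.55 to -1.16), while the other cells stood at 0.65. Slc2a1 was the 1 transporter called, out of 20 measured, with 935 CPM in P0 knockout against 1899 CPM in P0 wild type. Its ratio of -1.02 (-1.29 to -0.76) sat at the edge of the call, and was -0.98 without the cells of highest doublet score.

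The promoter windows of Slc2a1 and Igfbp3 are shown since these are the 1 transporter called and a spread-out secreted factor of the lower genes; source, span and capitals are as above.
Slc2a1, chr4:119108495-119108794, plus strand: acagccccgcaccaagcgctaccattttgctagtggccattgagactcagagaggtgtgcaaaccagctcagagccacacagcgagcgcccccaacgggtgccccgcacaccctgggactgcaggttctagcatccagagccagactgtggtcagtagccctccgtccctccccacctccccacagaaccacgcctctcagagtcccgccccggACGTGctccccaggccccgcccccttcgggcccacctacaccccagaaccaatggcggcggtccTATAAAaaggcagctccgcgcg
Igfbp3, chr11:7213874-7214173, minus strand: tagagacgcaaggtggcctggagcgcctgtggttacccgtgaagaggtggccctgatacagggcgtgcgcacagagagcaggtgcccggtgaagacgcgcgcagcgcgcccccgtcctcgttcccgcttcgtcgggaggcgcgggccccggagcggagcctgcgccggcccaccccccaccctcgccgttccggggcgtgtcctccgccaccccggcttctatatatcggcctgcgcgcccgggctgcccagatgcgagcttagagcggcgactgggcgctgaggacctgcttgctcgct
Slc2a1 held 1 match to ACGTG and 1 to TATAAA, and Igfbp3 held neither.

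Lpl, lipoprotein lipase, had 6 counts (33.4 CPM) in P0 knockout against 71 (339.5 CPM) in P0 wild type. Klf9, a transcription factor induced by glucocorticoid and thyroid hormones, had 8 counts (44.5 CPM) in P0 knockout against 68 (325 CPM) in P0 wild type. Kcna5, a potassium channel, had 5 counts (27.8 CPM) in P0 knockout against 37 (177 CPM) in P0 wild type. For each of the 3, P0 wild type stood apart from all other libraries, since at E14.5 Lpl had 10.7 CPM in the library labelled knockout and 23.03 CPM in wild type, Klf9 had 27.9 and 17.3 CPM, and Kcna5 had 19.3 and 11.5 CPM in the same order. The log2 ratios of knockout over wild type at P0 were -3.35 (-4.84 to -2.15) for Lpl, -2.87 (-4.14 to -1.81) for Klf9 and -2.67 (-4.37 to -1.32) for Kcna5. Ddit4, a stress-induced inhibitor of mTORC1, had 111 CPM in P0 knockout against 493 CPM in P0 wild type. Edn1, which encodes the vasoconstrictor endothelin-1, had 55.7 CPM in P0 knockout against 220.0 CPM in P0 wild type. Timp3, a matrix metalloproteinase inhibitor, had 328 CPM in P0 knockout against 1028 CPM in P0 wild type. Ccn2, a matricellular YAP target, had 72.4 CPM in P0 knockout against 273 CPM in P0 wild type. All 4 were called, at -2.15 for Ddit4, -1.98 for Edn1, -1.65 for Timp3 and -1.91 for Ccn2. In the other cells Ccn2 was lower by more, at -2.54, and Timp3 was higher, at 0.81.

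On the higher side, Rgs2, an inhibitor of Gq signalling, had 30 counts (167 CPM) in P0 knockout against 4 (19.1 CPM) in P0 wild type, a log2 ratio of 3.13 (1.62 to 5.09). Jak1, a cytokine receptor kinase, had 351 CPM in P0 knockout against 105 CPM in P0 wild type, at 1.74 (1.02 to 2.51). Unc5b, a netrin receptor of arterial and tip cells, had 200.4 CPM in P0 knockout against 62.2 CPM in P0 wild type, at 1.69 (0.74 to 2.73). Rgs2 and Unc5b were not higher than at E14.5, where the library labelled knockout had 289.6 and 332.5 CPM and wild type 363 and 795 CPM. Cd34, a sialomucin of endothelial and progenitor cells, had 801.5 CPM in P0 knockout against 363 CPM in P0 wild type, at 1.14 (0.73 to 1.56), and 0.82 over all chosen cells, no longer a call. Tal1, a haematopoietic and endothelial bHLH factor, had 26 counts in P0 knockout against 9 in P0 wild type, at 1.75 (0.61 to 3.03). Icam1, a leukocyte adhesion receptor, was at 2.57 (1.62 to 3.65), but 1 cell of P0 knockout held 64.3% of its 56 counts.

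Set against the 2.95% of all genes called higher and the 3.63% called lower, 5 gene groups (basement membrane, transporters, further barrier, junction and Wnt genes) had at most 1 member called between the P0 libraries. The basement membrane list had 1 of 16 genes higher and 0 lower (median 0.44), with Col4a2 at 0.93 (0.62 to 1.24) and Nid1 at 0.70 (0.38 to 1.02), both under the 2-fold call. Barrier transporters had 0 of 20 higher and 1 lower (median 0.00), further barrier genes 1 of 14 higher, which was Car4, and 0 lower (median 0.24), junction genes 0 of 12 in either direction (median 0.05), and Wnt/beta-catenin genes 1 of 12 higher, which was Notum, and 0 lower (median 0.12). More were called in the immediate early list, with 4 of 13 genes higher and 1 lower (median 0.35), the tip-cell list, with 3 of 15 higher and 1 lower, and the arterial list, with 2 of 11 higher and 0 lower. Haemoglobin and other red-cell genes summed to 161 CPM in P0 knockout against 7905 CPM in P0 wild type, where 2 cells held 1619 of 1653 counts, and mural genes summed to 4770 CPM against 3945 CPM. The part of red-cell and pericyte transcripts in the differences above was not tested.

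**Figure D5:**
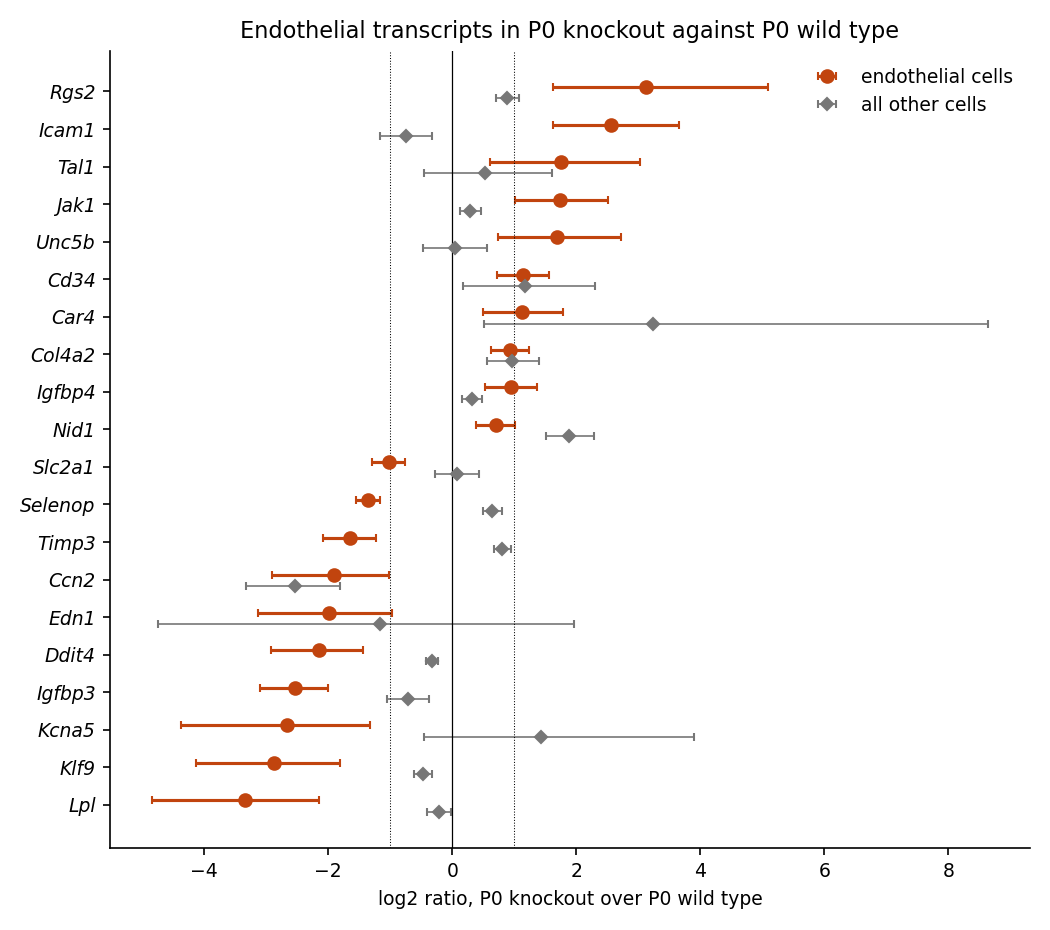
Points give the log2 ratio of P0 knockout over P0 wild type for 20 genes, in endothelial cells (orange circles) and in all other cells of the same libraries (grey diamonds, shown where both counting bounds are finite); bars are 95% counting intervals and dotted lines mark 2-fold. Lpl (-3.35), Klf9 (-2.87), Kcna5 (-2.67) and Igfbp3 (-2.53) lie farthest to the left and Rgs2 (3.13) farthest to the right.

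At E14.5 the library labelled knockout had more genes called against wild type, 627 of 4510 (13.9%), with 422 higher (9.36%) and 205 lower (4.55%), and the median gene stood at 0.18 on the log2 scale. The wild-type side rests on 11 cells, 8 of them among the cells of highest doublet score in their library. The mural list of that side was at 6438 CPM against 3477 CPM in the library labelled knockout. Over all chosen cells 866 of 5451 genes were called (15.9%). With Tsku present under the knockout label, no direction here can be assigned to genotype. Red-cell genes summed to 2958 CPM in the library labelled knockout against 6104 CPM in wild type, and their part was not tested.

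Aplnr, Flt4, Emcn and Plvap stood higher in the library labelled E14.5 knockout. Aplnr, the apelin receptor of venous and capillary endothelium, had 453 CPM there against 167 CPM in E14.5 wild type, a log2 ratio of 1.44 (0.87 to 2.05). Flt4, the VEGF-C receptor, had 41 counts in the library labelled knockout against 4 in wild type, at 1.93 (0.47 to 3.88). Emcn, a capillary and venous sialomucin, was at 1.28 (0.39 to 2.29). In the venous list 4 of 9 measured genes were higher and 1 lower, while in the arterial list 0 of 20 were higher and 4 lower. Over all genes tested, 9.36% were higher and 4.55% lower. The summed venous list hardly differed, at 2102 CPM in the library labelled E14.5 knockout and 2050 CPM in E14.5 wild type. The arterial list summed to 4333 CPM and 6115 CPM in the same order. In E14.5 wild type the largest share of 1 cell was 43.7% for Gja4, 56.4% for Sema3g and 71.4% for Efnb2. Plvap was higher as well, at 2.26 (1.16 to 3.62), on the 90 and 7 counts given above. Emp1, an epithelial membrane protein family member, had 188 counts (403 CPM) in the library labelled knockout against 8 (46.1 CPM) in wild type, at 3.13 (2.12 to 4.36), and 0.98 in all other cells. Atp5me, a subunit of ATP synthase, was lower at -3.03 (-3.82 to -2.30), with all other cells at -2.34. Flvcr2, a choline transporter of the barrier, was lower at -1.48 (-2.06 to -0.90), and at -0.86 over all chosen cells, no longer a call.

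The G2/M list was higher in the library labelled knockout by 22 of 35 measured genes, with 0 lower and a median of 1.38. Over all genes tested, 9.36% were higher. In the other cells the list summed to 7360 CPM in the library labelled knockout and 6125 CPM in wild type. The endothelial median was -0.27 once cells with at least 5 mural counts were left out of both libraries, which left 3 cells in wild type, 2 of them rich in cycle transcripts. Top2a then stood at -0.81 in place of 1.12, and Mki67 at -0.56 in place of 1.20. The immediate early list had a median of 1.01, which was -0.03 over all chosen cells.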

How the data were processed

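Single-cell RNA was measured in 4 libraries (Asteria kit, trypsin-dissociated cortex, 15000 cells loaded per the labels), 1 animal each. The authors deposited raw counts per gene and cell over 57126 features. The submitters' processing notes name FastQC 0.12.1, Seurat 5, R 4.3.2 and GRCm39; not given in the sources used here are the aligner, the strand setting and whether reads were collapsed to molecules. Kept cells had 500 or more counts, 300 or more genes and a mitochondrial share of 10% or less. Counts were summed per library over endothelial cells and given as CPM, with exact binomial 95% intervals from scipy 1.17.1. Log2 ratios of summed CPM were read for genes with at least 30 counts and called at 2-fold with an interval that leaves out equality. The ratio and its interval were tested on simulated independent Poisson sums. Those sums lack the clumping of counts in single cells, so the test cannot speak for spread between cells or animals. A group at 0 was set to a floor of 3 counts. Doublets were scored with Scrublet in scanpy 1.11.5 and not removed. Genes are named from fixed lists, from the 12 highest and 12 lowest interval bounds per comparison with no cell over 25% of the counts (also among genes 4-fold higher than in other cells), and the 30 highest over other cells. Members and lists were chosen with earlier results of these data known, and the restriction to cells with Cldn5 or Flt1 was chosen after seeing the data. Alternatives were TMM scaling (edgeR 4.0.16), other count minimums, marker sums of at least 3 or 10, thinning to 1500 counts, equal weight per cell, and removal of the 5% highest Scrublet scores or of cells with mural counts. The Scrublet removal also took all ties at the cut. It left 1336 of 1436 cells in P0 knockout and 972 of 1047 in P0 wild type. At E14.5 it left 3881 of 4107 in the library labelled knockout and 566 of 620 in wild type.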

Additional observations from a re-analysis of the deposited data

How the results depend on the processing

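No paired analysis was possible because each group is 1 library and the labels give no replicate numbers. Depth and cell number limit every value: 11 E14.5 wild-type cells carry 2 of the 4 comparisons, and counts of called genes moved with the minimum count and with thinning. Comparisons follow in the order P0 knockout over wild type, E14.5 library labelled knockout over wild type, P0 over E14.5 in wild type, and P0 over E14.5 in the libraries labelled knockout. Over all chosen cells (289, 866, 772 and 763 genes called), a minimum of 100 counts gave 51, 229, 171 and 169, a minimum of 10 counts gave 662, 1347, 1415 and 1240, and thinning to 1500 counts gave 35, 121, 63 and 125. Marker sums of at least 10 gave 191 in the first and 487 in the third. Leaving out cells with mural counts gave 147 in the first and 431 between the ages in the libraries labelled knockout. Asking that no cell hold over 25% of the counts gave 157 in the first and 446 in the third, and keeping only cells with Cldn5 or Flt1 gave 192 in the first and 464 in the third. Over cells with Cldn5 or Flt1 (192, 627, 464 and 637 genes called), a minimum of 100 counts gave 21, 130, 91 and 136, and thinning gave 26, 60, 31 and 113. A minimum of 10 counts gave 437 in the first and 926 in the third. Leaving out cells with mural counts gave 164 in the second, 147 in the third and 319 between the ages in the libraries labelled knockout, and the 25% condition gave 115 in the first and 209 in the third. These last 2 choices, the 25% condition and the restriction to Cldn5 or Flt1, were made after seeing the data. The log2 ratio of the endothelial share at E14.5, library labelled knockout over wild type, was -0.11 without the highest Scrublet scores, against -1.12 over all chosen cells. Of 93 gene values, 12 were weaker with equal weight per cell, 7 without the highest Scrublet scores and 6 when thinned. Over all chosen cells 5 were weaker, without mural-positive cells 5, and with TMM scaling 1. Values that stayed the same numbered 49 without mural-positive cells and 24 when thinned. Of 89 list medians, 16 moved over all chosen cells, 7 without mural-positive cells and at most 5 under any other setting. Directions turned for 9 values. At E14.5, without mural-positive cells, the G2/M median was -0.27, Mki67 -0.56 and Top2a -0.81. Thinned, Mki67 was -0.15 and Top2a -0.79, and with equal weight per cell Top2a was -0.19. Over all chosen cells the immediate early median at E14.5 was -0.025, Fos between the wild-type ages was -0.18 and Cxcl12 between the ages in the libraries labelled knockout was 0.85. The causes were not tested. For endothelial over other cells, the median over cells gave no ratio, since the median of other cells was 0.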
